A study of Mus musculus with 4 samples.

Results

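Immediate early genes of sorted mouse cerebral cells were compared between mice with and without tamoxifen. The 10 genes, chosen by symbol, were Fos, Fosb, Jun, Junb, Egr1, Atf3, Ier2, Dusp1, Nr4a1 and Btg2. All 10 were listed among the 24873 genes of the table, and all 10 passed the filter on low values, a mean of 10 or more normalized counts, which left 20485 genes for testing. RNA-Seq was performed in 2 control and 2 tamoxifen libraries, each made from cells pooled from 3 mice. All mice, controls included, carried VE-cadherin cre/ERT2, a recombinase that tamoxifen activates in cells using the VE-cadherin promoter, and Mgp fl/fl, the gene of matrix Gla protein flanked by recombinase sites; the labels write this as Cdh5cre and Mgpflox/flox. The tamoxifen group received 75 mg/kg for 5 days at an age of 10 weeks, controls were given none, and cells were taken on day 9. No group received tamoxifen without the floxed alleles, so an effect of the drug and an effect of Mgp deletion cannot be told apart. The sort was for CD31+CD45- cells after warm papain digestion, whereas the labels call the cells tdTomato+. The table's columns are lettered C and A, and A was read as the libraries labelled treated.

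Immediate early genes are transcribed within minutes of a stimulus by factors that are already in the cell, before any new protein has to be made. MAP kinase signalling acts on serum response factor and its ELK partners, and cAMP or calcium signals act on CREB. Many of the products are transcription factors that regulate a later set of genes, and the others are feedback regulators. In endothelial cells the genes respond to flow, growth factors and inflammatory signals, and in many tissues they also respond to enzymatic dissociation.

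The libraries held 37475154 and 41025014 reads on genes in the control group and 35387438 and 49799321 in the tamoxifen group, and single members rested on 318 to 20752 reads per library. Mgp, the targeted gene, stood at 1094 and 1352 normalized counts in controls and at 945 and 909 in the tamoxifen libraries. The Mgp groups did not overlap, but the log2 difference of -0.39 did not pass the test (limma, adjusted p = 0.0986). The p-values measure the spread between these 4 pooled libraries. All 10 endothelial markers checked (Pecam1 and Cdh5 among them) were present in every library and lower in both tamoxifen libraries.

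Of the 10 immediate early genes, 9 were lower in the tamoxifen group and none was higher at an adjusted p under 0.05 and a log2 fold change beyond 1 in either direction. Across all tested genes 16.0% were called lower and 28.6% higher by the same rule (limma with Benjamini-Hochberg adjustment over 20485 genes). The members' median log2 fold change was -1.69, and that of all tested genes was 0.05. The groups did not overlap, with tamoxifen the lower, for 9 of the 10 members, against 39.2% of all tested genes. The members were abundant transcripts, ranking from 227 to 5838 by control level, and among the 5838 tested genes at or above the least abundant of them 27.7% were called lower, with a median of -0.49. Egr1 was the exception, with overlapping groups. In bulk RNA, fewer cells of a type and less RNA of these genes per cell cannot be told apart. With 2 libraries against 2, an exact permutation test of a single gene cannot go below p = 0.333, and the calls rest on the spread pooled over all genes. Without tamoxifen library 2 the count of members called lower was 4, and without any other single library it was 6 to 9. It was also 6 with the libraries rescaled to equal totals and 6 without the mean-variance trend. Of all tested genes, 9.0% and 16.1% were called lower in these 2 settings. Without either tamoxifen library, fewer genes were called over the whole table as well.

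**Figure D1:**
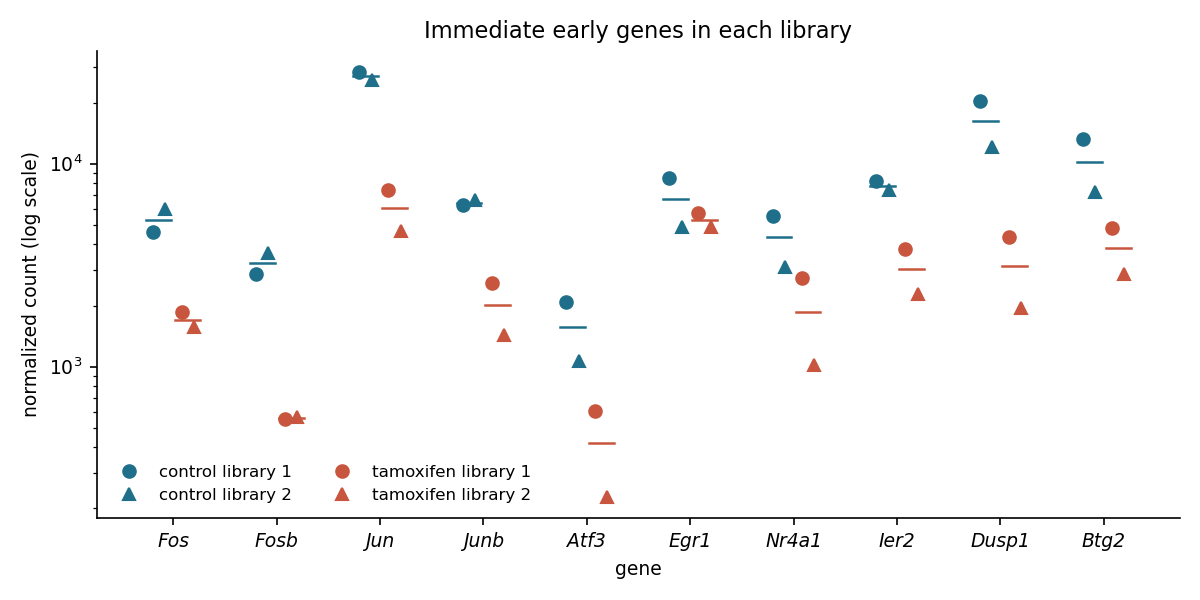
Normalized counts of the 10 immediate early genes in each library, on a log axis, with control and tamoxifen libraries shown as separate points. For 9 genes both tamoxifen points lie below both control points, and for Egr1 the groups overlap.

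FOS and JUN family proteins pair to form AP-1, a transcription factor whose makeup depends on which members are present. Fos, located at chromosome 12, 85520658 to 85524047 (GRCm39, plus strand), stood at 4604 and 6013 normalized counts in controls and at 1848 and 1560 in the tamoxifen libraries. Both tamoxifen values were below both control values. The log2 fold change was -1.63 ± 0.19 (SE, n = 2 per group), 3.10-fold lower on the fitted scale (limma, adjusted p = 0.000228). Without tamoxifen library 2 the adjusted p was 0.0544.

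Fosb encodes a FOS family partner of JUN proteins and lies at chromosome 7, 19036621 to 19043976, on the minus strand. It stood at 2846 and 3610 normalized counts in controls and at 553 and 567 in the tamoxifen libraries. The tamoxifen libraries were nearly level with each other and far below both controls. Its log2 fold change of -2.52 ± 0.18 (SE) (limma, adjusted p = 3.81e-05) was a fitted 5.72-fold decrease, within its error of that of Dusp1. The order of these falls changed with the libraries used: without control library 2 Fosb was at -2.34 and Dusp1 at -2.81, and without tamoxifen library 1 they were at -2.50 and -3.02. Within each library, the Fosb count was 0.618 and 0.600 of the Fos count in controls and 0.299 and 0.363 of it in the tamoxifen libraries.

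Jun, a gene with a single exon at chromosome 4, 94937271 to 94940459 (minus strand), had the most counts of the members in 3 of 4 libraries, tamoxifen library 2 being the exception, where Egr1 had more. It stood at 28330 and 25973 normalized counts in controls and at 7421 and 4674 in the tamoxifen libraries. The groups stood far apart, and the tamoxifen libraries differed more from each other than the controls did. Jun had a log2 fold change of -2.20 ± 0.24 (SE; limma, adjusted p = 0.000196), a fitted 4.61-fold decrease. Jun made up 28.4% and 33.3% of the members' summed counts in controls and 21.6% and 21.8% in the tamoxifen libraries. Junos, an antisense gene at the same place, stood at 54.2 to 72.6 normalized counts in all 4 libraries. The library kit was stranded, but whether the counting used strand is not given in the sources used here.

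Junb, the JUN relative that often opposes growth, lies at chromosome 8, 85701113 to 85705359, on the minus strand. Its normalized counts were 6253 and 6616 in controls and 2576 and 1437 in the tamoxifen libraries, with no overlap. This was a log2 fold change of -1.74 ± 0.26 (SE; limma, adjusted p = 0.000846). Prdx2 overlaps the Junb gene span on the other strand, outside the canonical transcript, and moved the other way, from 3487 and 4391 to 9929 and 9312 normalized counts.

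Atf3 encodes a stress-responsive factor that binds cAMP response elements and pairs with JUN proteins, at chromosome 1, 190902493 to 190950241 (minus strand). It stood at 2075 and 1069 normalized counts in controls and at 607 and 229 in the tamoxifen libraries. The groups did not overlap, but the libraries of each group spread widely, by 1.94-fold in controls and 2.66-fold after tamoxifen. A log2 fold change of -2.0 ± 0.47 (SE) was found (limma, adjusted p = 0.00787). Without tamoxifen library 1 the adjusted p was 0.0682, and without tamoxifen library 2 it was 0.187.

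Ier2, Dusp1 and Btg2 encode products that are not DNA-binding factors of the AP-1 kind. Ier2, the gene of a nuclear protein, with 1 exon at chromosome 8, 85387960 to 85389483 (minus strand), stood at 8179 and 7382 normalized counts in controls and at 3790 and 2273 in the tamoxifen libraries. Both tamoxifen values were below the controls. Its log2 fold change was -1.40 ± 0.24 (SE; limma, adjusted p = 0.00171), and after rescaling the libraries to equal totals it was -0.93, short of the fold limit.

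Dusp1, the phosphatase that switches off MAP kinases, lies at chromosome 17, 26724564 to 26781102, on the minus strand. Its normalized counts were 20405 and 12104 in controls and 4348 and 1939 in the tamoxifen libraries. Control library 1 and tamoxifen library 1 were each the higher of their group, and the groups stood apart. Dusp1 had a log2 fold change of -2.44 ± 0.39 (SE; limma, adjusted p = 0.00114), a fitted 5.41-fold decrease. Without tamoxifen library 2 the adjusted p was 0.0866.

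Btg2, an antiproliferative gene that also promotes removal of messenger RNA tails, lies at chromosome 1, 134002908 to 134015033 (minus strand). It stood at 13180 and 7247 normalized counts in controls and at 4818 and 2868 in the tamoxifen libraries, without overlap. Its log2 fold change was -1.39 ± 0.33 (SE; limma, adjusted p = 0.00777). The call was lost in 6 of 14 alternatives, among them the removal of tamoxifen library 2 (adjusted p = 0.221), of tamoxifen library 1 (0.102) and of control library 1, where the log2 fold change was -0.96.

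The sequence before the start of each gene was taken from RefSeq promoters of build GRCm38.p6, which differs from the GRCm39 coordinates given elsewhere. A promoter was found for 8 of the 10 members (not for Ier2 and Egr1), and for 13285 tested genes. The 250 bases before each start are shown for Fos and Fosb, which differ in the size of their fall, and for Dusp1 and Btg2, which hold the full cAMP response element, the site where CREB and ATF proteins bind. Capitals mark TGACG, its shorter core, or TGACGTCA, the full element, on either strand.
Fos (chr12:85473640-85473889, plus strand): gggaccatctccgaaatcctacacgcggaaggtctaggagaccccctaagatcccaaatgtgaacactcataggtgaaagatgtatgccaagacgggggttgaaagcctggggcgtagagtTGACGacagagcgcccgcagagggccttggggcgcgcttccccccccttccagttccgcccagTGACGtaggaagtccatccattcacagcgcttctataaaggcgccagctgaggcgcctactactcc
Fosb (chr7:19310046-19310295, minus strand): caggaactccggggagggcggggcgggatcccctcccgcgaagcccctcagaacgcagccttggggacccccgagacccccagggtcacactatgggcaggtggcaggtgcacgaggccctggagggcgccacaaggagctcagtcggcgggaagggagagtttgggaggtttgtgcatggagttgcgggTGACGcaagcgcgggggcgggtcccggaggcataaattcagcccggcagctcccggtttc
Dusp1 (chr17:26508473-26508722, minus strand): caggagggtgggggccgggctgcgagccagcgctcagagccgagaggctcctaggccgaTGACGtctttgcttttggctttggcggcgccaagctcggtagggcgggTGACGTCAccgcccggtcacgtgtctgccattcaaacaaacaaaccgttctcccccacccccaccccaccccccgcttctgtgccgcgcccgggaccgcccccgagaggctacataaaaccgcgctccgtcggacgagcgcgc
Btg2 (chr1:134079156-134079405, minus strand): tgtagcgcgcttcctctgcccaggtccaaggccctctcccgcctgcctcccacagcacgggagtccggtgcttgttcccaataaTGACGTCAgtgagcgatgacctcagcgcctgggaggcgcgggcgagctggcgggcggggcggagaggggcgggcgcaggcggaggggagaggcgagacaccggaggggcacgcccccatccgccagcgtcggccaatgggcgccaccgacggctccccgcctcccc

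Both strands of these 250 bases were searched, and positions count back from the base before the start, which is -1. TGACGTCA was present in Dusp1 (from -143) and Btg2 (from -166), 2 of 8 members, and in 2.4% of tested promoters. TGACG was present in 7 of 8 members, all but Jun, and in 24.7% of tested promoters, and each full element holds it on both strands. In Fos it began at -129 and -66, and in Fosb at -60. The EGR site GCGNGGGCG was present in Btg2, Fosb and Nr4a1 and in 8.2% of tested promoters. The Sp1 box GGGCGG, which can overlap the EGR site, was present in 7 of 8 members, all but Junb, and in 54.7%. The AP-1 site TGANTCA was in no member and in 4.8% of tested promoters, and the CArG box, where serum response factor binds, was in no member and in 1.2%. The members' windows were richer in G and C, with a median of 67.4% against 58.8%. These are matches of letters, given without a test. Sites farther upstream, and any in Ier2 and Egr1, were not searched, so a site missing here may lie elsewhere. Only the stated letters were matched, so variants inside the window were missed. The Jun window, for example, holds TGACATCA, which is close to TGACGTCA but was not counted.

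By their canonical transcripts, the members were compact genes. Their canonical transcripts had 1 to 7 exons, with a median of 3 against 9 for 15555 tested protein-coding genes. The median canonical span was 3670.5 bp against 22563 bp, and all 10 members were below the median of tested genes on both measures. The places given for each gene are whole annotated spans, which can be longer. They cover 56539 bp for Dusp1 and 47749 bp for Atf3, whose canonical spans are 2930 and 13045 bp. Transcript length differed less, with medians of 2331 and 3437 bp, and 8 members were below the latter. No test was run on these features.

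Egr1 and Nr4a1 encode DNA-binding factors outside AP-1, a zinc finger protein and an orphan nuclear receptor. Egr1, at chromosome 18, 34992876 to 34998049 (plus strand), stood at 8457 and 4875 normalized counts in controls and at 5705 and 4881 in the tamoxifen libraries. Control library 2 and tamoxifen library 2 were at nearly the same level, and control library 1 alone stood above the rest. The log2 fold change of -0.28 ± 0.26 (SE) did not pass the test (limma, adjusted p = 0.372), and without control library 2 it was -0.68 with an adjusted p of 0.036, past that cut-off but short of the fold limit. Its sign turned in 3 alternatives, to 0.11 without control library 1, 0.19 with equal totals and 0.14 when quantile normalized. The difference of means was well within the control group's spread, 6666 ± 2533 (SD, n = 2) against 5293 ± 583 (SD, n = 2). As a share of the members' summed counts Egr1 was 8.5% and 6.2% in controls and 16.6% and 22.8% in the tamoxifen libraries, and its ratio to Fos was 1.84 and 0.81 in controls and 3.09 and 3.13 after tamoxifen.

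Nr4a1, at chromosome 15, 101151980 to 101172681 (plus strand), was at 5550 and 3113 normalized counts in controls. It was at 2719 and 1017 in the tamoxifen libraries. Tamoxifen library 1 came close to control library 2, and the groups did not overlap. The log2 fold change was -1.32 ± 0.45 (SE; limma, adjusted p = 0.0344), the weakest call of the 9, and it held in 7 of 14 alternatives, with log2 fold changes from -2.03 to -0.61. Without tamoxifen library 2 the adjusted p was 0.382, without tamoxifen library 1 it was 0.0813, and without control library 1 the log2 fold change was -0.90, under the fold limit.

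Fosb, Jun and Junb were called in all 14 alternatives, Fos, Ier2 and Dusp1 in 13, and Atf3 in 11. Scaling moved the level of all genes: the median log2 fold change of all tested genes was 0.52 with equal totals and -0.23 with quantile normalization, and the members' median stood 1.74 below the median of all genes in the main scaling. It was 1.73 below with equal totals and 1.28 below with quantile normalization. Of all calls, 35.9% were lower in the main scaling, 20.3% with equal totals and 54.4% with quantile normalization.

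**Figure D2:**
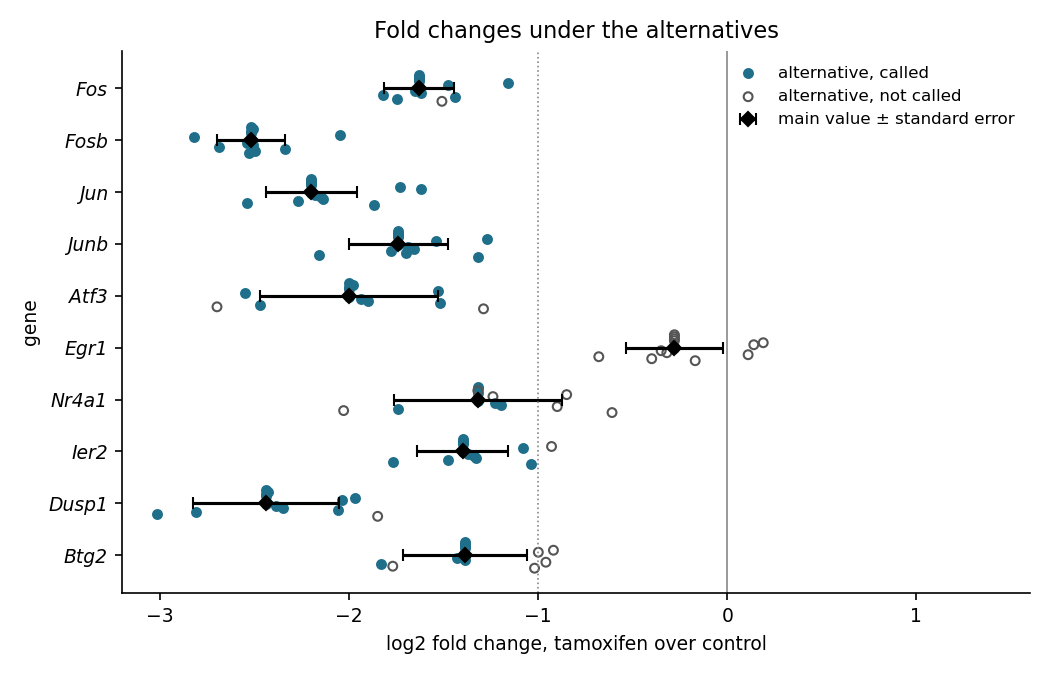
Log2 fold change, tamoxifen over control, of each immediate early gene under the main setting and 14 alternatives, filled where the gene was called, and the bars give the standard error of the main value. Fosb, Jun and Junb pass in every alternative, and Egr1 passes in none and lies on both sides of 0.

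Levels were compared between genes as normalized counts per kilobase of canonical transcript. Jun, at 8514, and Dusp1, at 8168, led the control group, followed by Ier2 at 5105, Btg2 at 3723, Junb at 3557 and Fos at 2511. Nr4a1 at 1700, Egr1 at 1483, Fosb at 853.5 and Atf3 at 792 came last. The 2 control libraries overlapped between Jun and Dusp1, Btg2 and Junb, Fos and Nr4a1, Nr4a1 and Egr1, and Fosb and Atf3. Within each control library Nr4a1 was nonetheless above Egr1 (2178 against 1881, and 1222 against 1084). The other overlapping pairs did not keep their order in both libraries, Fos and Nr4a1 being level in control library 1. In the tamoxifen group the order was Ier2 at 1989, Jun at 1896, Dusp1 at 1580, Btg2 at 1401, Egr1 at 1177, Junb at 1109, Fos at 806, Nr4a1 at 733, Atf3 at 211 and Fosb at 148.0. There, all neighbours overlapped except Nr4a1 and Atf3. Within each tamoxifen library, though, Ier2 was above Jun, Jun above Dusp1 and Junb above Fos. The other overlapping neighbours changed order between the tamoxifen libraries. Egr1 stood 8th of 10 in controls and 5th after tamoxifen.

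The sum over the 10 members was 99878 and 78001 normalized counts in controls and 34384 and 21445 in the tamoxifen libraries. As a share of all counts, which does not depend on the factor each library was divided by, it was 0.195% and 0.152% in controls and 0.0897% and 0.0599% after tamoxifen. Both tamoxifen shares were below both control shares.

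Libraries of the same group also differed. In controls, 7 of 10 members were higher in library 1, with a median log2 difference of 0.45, and the median over all tested genes was -0.05. In the tamoxifen group 9 of 10 were higher in library 1, with a median of 0.74 against 0.08 over all tested genes. Atf3, Btg2, Nr4a1, Egr1 and Dusp1 were 1.69 to 1.94-fold higher in control library 1 than in control library 2. Fos and Fosb were lower there, at 0.766 and 0.789 of the level in library 2. Between the tamoxifen libraries, Nr4a1 and Atf3 differed by 2.67 and 2.66-fold and Dusp1 by 2.24-fold, whereas Fosb was level. Hspa1a and Hspa1b, near-identical heat shock genes whose counts are uncertain, were also higher in library 1 of both groups. Of the 7 heat shock genes, 7 were higher in control library 1 and 6 in tamoxifen library 1. Hsph1 had the widest log2 difference of them between controls, 1.46, but was at -0.13 between the tamoxifen libraries. All 10 endothelial markers were higher in tamoxifen library 1 than in tamoxifen library 2, by 0.71 to 1.2 on the log2 scale with a median of 0.94, and 4 of 10 were higher in control library 1, with a median of -0.02. Mural markers ran the other way, with 1 of 8 higher in library 1 of each group, as did astrocyte markers, with 1 of 6 in controls and 0 of 6 after tamoxifen. Neutrophil markers, at low counts in controls, were higher in library 1 in 6 of 7 there and in 7 of 7 after tamoxifen. Erythroid markers changed sides, with 0 of 6 higher in control library 1 and 6 of 6 in tamoxifen library 1. The part of these cell types in the difference between libraries was not tested.

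**Figure D3:**
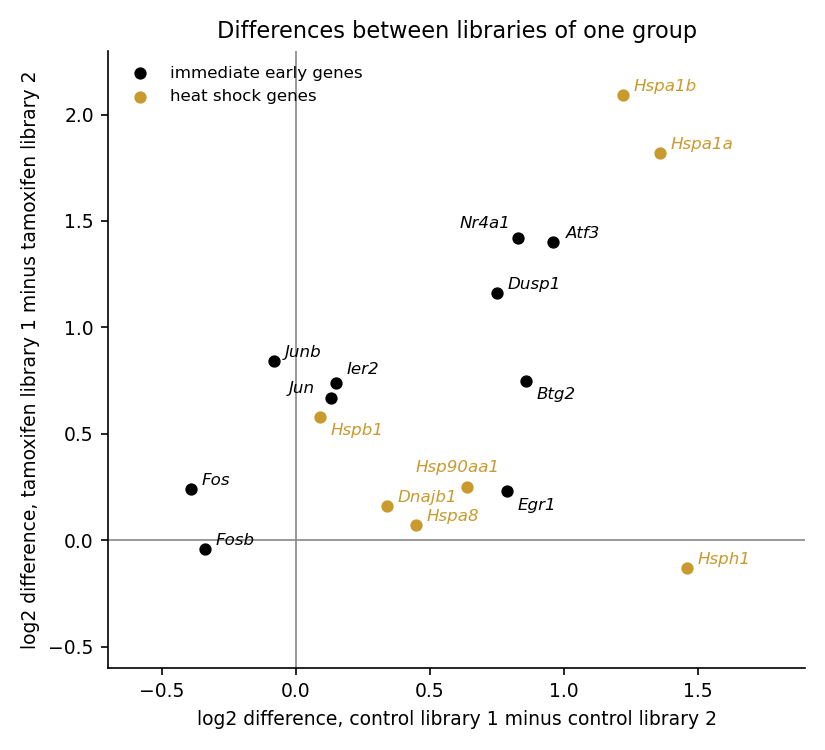
Log2 difference between library 1 and library 2 of the control group (horizontal) and of the tamoxifen group (vertical), for the immediate early genes and the heat shock genes. Nr4a1, Atf3 and Dusp1 lie far to the upper right, as do Hspa1a and Hspa1b, and Fos, Fosb and Junb lie left of 0. Hsph1 lies farthest right and below 0 on the vertical axis.

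Markers of endothelial cells and of other cell types moved with the groups. The 10 endothelial markers, all called lower, summed to 988125 and 964318 normalized counts in controls and to 168017 and 85910 after tamoxifen, 1.93% and 1.88% of all counts against 0.44% and 0.24%. All 7 neutrophil markers were called higher, with sums of 232 to 297 in controls and 81197 to 108979 after tamoxifen. All 6 fibroblast markers were called higher (2257 to 3213, then 59759 to 69745), as were all 6 astrocyte markers (27117 to 31486, then 134790 to 285980). The sums of these lists did not overlap between groups. All 6 erythroid markers were called higher too (18082 to 36469, then 103723 to 161494), as were all 5 tested of 6 lymphocyte markers (68 to 90, then 1863 to 2572). Of 7 neuron markers 5 were higher (640 to 892, then 6255 to 10485), and of 7 oligodendrocyte lineage markers 6 were (647 to 692, then 7364 to 7996). Microglia and macrophage markers were higher in 2 of 6 (2303 to 3527, then 4001 to 4554), and mural markers in 1 of 8 (31870 to 58941, then 39140 to 78530). Cd3e was at 0 in control library 1, the only marker at 0 in any library. Ptprc, the gene of CD45 that the sort selected against, stood at 50.7 and 83.9 normalized counts in controls and at 1423 and 1119 after tamoxifen. The part of these cell types in the fall of the immediate early genes was not tested.

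Set against the endothelial markers, the direction was the other one. Per 100 counts on the 10 endothelial markers, the members had 10.11 and 8.09 counts in controls and 20.46 and 24.96 in the tamoxifen libraries. For 9 of 10 members both tamoxifen libraries lay above both controls on this measure, and Fosb overlapped, at 2.88 and 3.74 counts per 1000 endothelial counts in controls and 3.29 and 6.59 after tamoxifen. Egr1 had the largest ratio, with 8.56 and 5.06 counts per 1000 in controls and 34.0 and 56.8 after tamoxifen, a 6.67-fold higher mean. Jun stood at 28.7 and 26.9 and then at 44.2 and 54.4, a 1.77-fold higher mean, and Dusp1 at 20.7 and 12.6 and then at 25.9 and 22.6, 1.46-fold higher. These ratios are a description without a test. Each endothelial marker fell more than any member, with log2 fold changes of -3.43 to -2.75 against -2.52 to -0.28 in the main setting. A member's ratio can therefore rise although the member itself fell. The members' counts are from bulk RNA of all cells in a library, so the ratios are not levels per endothelial cell. The cells in which the members' RNA arose were not tested.

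**Figure D4:**
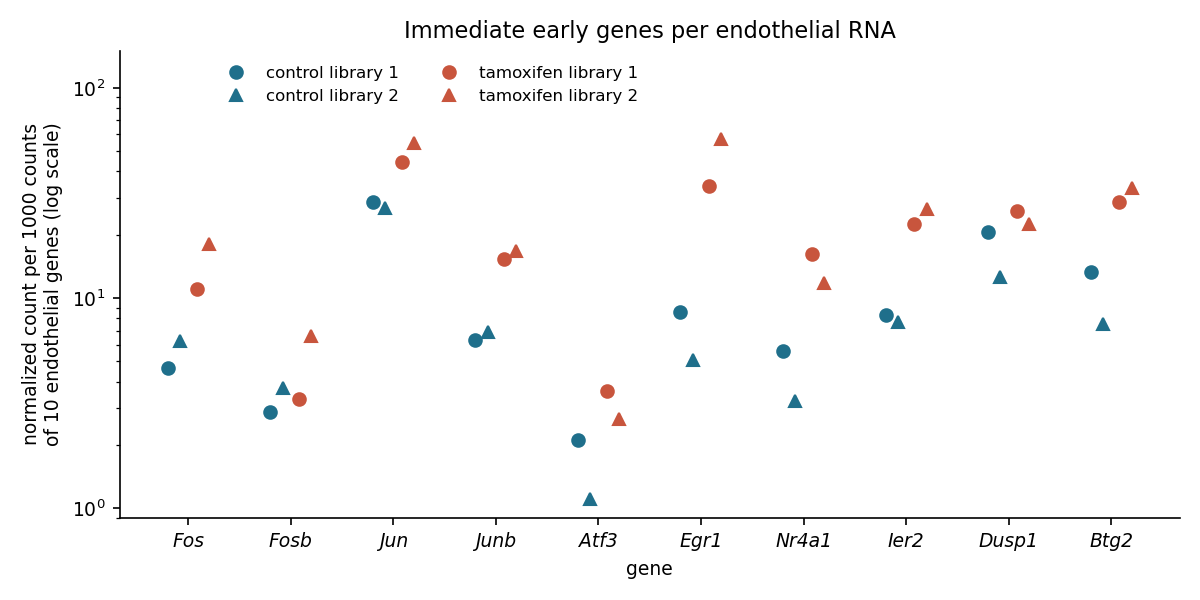
Counts of each immediate early gene per 1000 counts on 10 endothelial markers, by library, on a log axis. Both tamoxifen libraries lie above both controls for 9 genes, and the groups overlap for Fosb.

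Related genes were read from 9 lists, in which 37 of 99 tested genes were called lower and 13 higher, against 16.0% and 28.6% of all tested genes. Among the 5838 tested genes at or above the least abundant member in control level, 27.7% were called lower, with a median of -0.49. Not all genes of the lists reach that level. Of 11 other AP-1 genes, 5 were called lower and 1 higher, with a median log2 fold change of -0.72. Batf fell by 1.93 on the log2 scale (182.2 and 241.6, then 71.5 and 41.0 normalized counts) and Maff fell by 1.89 (2246 and 1576, then 664 and 386). Fosl1, a FOS relative, was higher by 2.26, from 9.59 and 21.3 to 100.8 and 52.5. Of 6 tested EGR, NR4A and NAB genes 2 were called lower, Nr4a2 at -2.33 and Nab1, a corepressor of EGR proteins, at -1.13, with a median of -0.99. Egr4 was below the filter.

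Of 8 IER, BTG and TOB genes 5 were called lower, with a median of -1.49, Btg4 at -2.69 from few counts (37.0 and 30.0, then 4.34 and 4.31) and Ier3 at -2.22. Of 26 other primary response genes 14 were called lower and 4 higher, with a median of -1.11. Ccn2, a matricellular protein gene, went from 17296 and 16915 to 3277 and 2137 normalized counts, a log2 fold change of -2.69. Zfp36, whose protein destabilizes messenger RNA, was at -2.46. Myc and Ptgs2, the cyclooxygenase gene, were called higher at 2.52 and 1.84.

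Other MAP kinase phosphatases were mixed, with 2 called lower and 3 higher of 9 and a median of -0.02. Dusp7 was at -2.34 and Dusp6, a phosphatase of ERK, at -1.46, whereas Dusp4 was at 3.86 and Dusp9 at 8.10. Dusp9 stood at 4.11 and 10.01 normalized counts in controls and at 2440 and 1730 in the tamoxifen libraries. Of 9 upstream transcription factors 4 were called lower and 1 higher, with a median of -0.90. Mrtfb, a partner of serum response factor, was at -2.68 and Elk3 at -2.02, and Atf1 was higher at 1.06, while Srf itself, at -0.70, did not reach the fold limit. Of 15 MAP kinase genes 2 were called lower, Rps6ka3 at -1.40 and Mapk3, the gene of ERK1, at -1.36, with a median of -0.31. In the integrated stress response around ATF3, 3 of 8 genes were called higher and none lower, with a median of 0.67, Cebpb at 2.80 and Asns, the asparagine synthetase gene, at 2.63. Of 7 heat shock genes 3 were called lower and 1 higher, Hspa1a at -4.46, Hspa1b at -3.97 and Hsp90aa1 at 2.50.

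**Figure D5:**
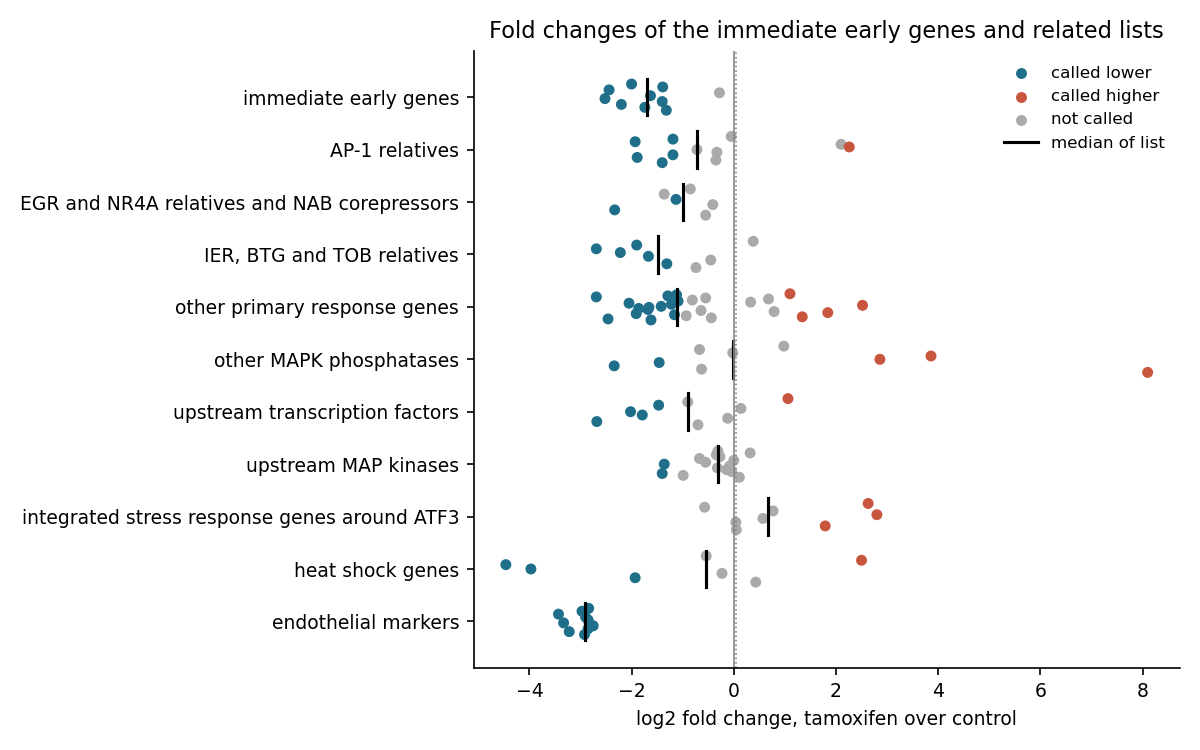
Log2 fold change, tamoxifen over control, of the immediate early genes and of the genes of each related list, with the endothelial markers below, coloured by call, and a bar at each list's median. The immediate early genes lie from -2.52 to -0.28, Dusp9 lies farthest above 0 at 8.10 and Hspa1a farthest below at -4.46.

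The genes with a profile over the 4 libraries most like the members' median profile were sought among 13658 genes whose mean was 100 normalized counts or more. They were Gpr160, Fam217a, Trim21, Slc9b2 and Dpp4, at distances of 0.123 to 0.192 on the centred log2 scale. Of the members themselves, Junb was nearest at 0.314, Fosb stood at 1.125 and Egr1 was farthest at 1.559. Gpr160, for example, was at 1041 and 874 normalized counts in controls and at 407.5 and 218 after tamoxifen. With 4 libraries the likeness is a description only.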

How the data were processed

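RNA-Seq of 2 control and 2 tamoxifen libraries was analysed from 1 table for the series. Reads were aligned by the authors to GRCm39 with STAR 2.7.10a and normalized with DESeq2 1.36.0. The deposited values are normalized counts, a signal per gene made of reads divided by 1 factor per library. Reads were recovered from the steps of each column, within 0.01 of a whole read, and numbered 35387438 to 49799321 per library. The library kit was stranded, and the annotation release and the strand setting of the counting were not given in the sources used here. Gene places come from GENCODE M39.

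Genes averaging 10 normalized counts or more were fitted by limma 3.58.1 in R 4.3.3 (lmFit, eBayes with trend) on log2(normalized count + 1), with Benjamini-Hochberg adjustment. A gene was called below an adjusted p of 0.05 when its log2 fold change was beyond 1 in either direction. Fold changes on this scale understate changes of low genes. Other steps used Python 3.11.15, and the fit was tested on simulated data. The members, lists and tests were chosen with earlier results of these data known. In related lists, the 2 most changed called genes each way were named, and Egr4 and Srf were named after their values were seen. Likeness was the Euclidean distance between centred log2 profiles. Alternatives were a pseudocount of 0.5 or 5, a filter at 100 or none, libraries set to equal totals or quantile normalized, no trend, a replicate block, the count models of edgeR 4.0.16 and DESeq2 1.42.0 fitted to recovered reads, the removal of each library, and calls by adjusted p only.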

Additional observations from a re-analysis of the deposited data

How the results depend on the processing

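The direction of the 9 called members was lower in all 14 alternatives. Of 140 member values, 118 kept their direction and stayed called, or not called, by both cut-offs together. The call was lost in 19, and 3, all of Egr1, changed sign. Egr1 was at 0.19 with equal totals, 0.14 with quantile normalization and 0.11 without control library 1, against -0.68 without control library 2. The cause of these changes was not tested. All genes called numbered 9151, 5934 with the filter at a mean of 100, where fewer genes were tested, and 4147 to 9700 with 1 library left out. Members called were 9, 6 with equal totals or without the trend, 7 with quantile normalization, 8 without a filter, and 4 to 9 with 1 library left out, a lone library then being assumed to vary like the other group. Of all tested genes, 16.0% were called lower in the main setting, 9.0% with equal totals and 16.1% without the trend. That share was 26.9% with quantile normalization and 12.7% without a filter, so the member counts of these settings are not directly comparable. The members' median was -1.69, -1.22 with equal totals, and -2.10 to -1.31 with 1 library left out. The tamoxifen minus control difference in the members' share of counts was -0.098 percentage points, and -0.126 without the 50 most abundant genes of each library. Over all tested genes, same-numbered libraries did not deviate together (r = 0.03 across 20485 genes). The members were less even, with 7 of 10 higher in control library 1 and 9 of 10 in tamoxifen library 1. With the replicate block 9525 genes and 9 members were called and the members' median was -1.69. The block lowered the standard error of Atf3 from 0.47 to 0.24 and that of Nr4a1 from 0.45 to 0.20. It also lowered those of Junb, Egr1, Ier2, Dusp1 and Btg2. Those of Fos (0.19 to 0.20), Fosb (0.18 to 0.21) and Jun (0.242 to 0.243) did not fall. edgeR and DESeq2 on recovered reads called 9241 and 8739 genes and 9 members each. Each member rested on 318 reads or more per library, so the number of libraries, 2 per group, limits the precision.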
